A study of Mus musculus with 7 samples.

Results

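MicroRNAs (miRNAs) of adult virtual memory (VM) CD8+ T cells were compared with those of adult true naive (TN) CD8+ T cells. The comparison used the 4 libraries titled as adult VM or adult TN, 2 of each, out of 7 in the series. The cells came from the spleens of gBT-I mice, a line whose T cells carry a transgenic receptor for a herpes simplex virus peptide, and both subsets share that receptor. VM cells were sorted as CD44hi CD122hi and TN cells as CD44lo CD122lo, at a stated purity above 95%. The other 3 libraries were 2 neonatal VM and 1 neonatal TN from the same kind of mouse, sorted with the same markers. They enter the choice of miRNAs to test, the scaling, the GC correction and the shared estimate of spread. They also serve for a test of whether the adult difference held in neonatal cells. Ages are given as adult or neonatal only, and it is not stated whether the replicates of a group are different animals. The p-values therefore cover the spread among these libraries alone, and that spread may be technical. No treatment is named, so both groups are taken as the labels give them, by age and sort gate.

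VM cells are CD8+ T cells that take on memory markers without having met foreign antigen, largely in response to self ligands and to interleukin-15, whose receptor includes CD122. A miRNA is cut from a hairpin transcript, and 1 arm or both are loaded into a silencing complex, where bases 2 to 8 (the seed) pair with target messages. MiR-181a is known for raising the sensitivity of the T cell receptor in thymocytes by lowering phosphatases, miR-150 for targeting Myb in mature lymphocytes, and miR-21, miR-146a and miR-155 for rising when T cells are activated.

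The mature sequences below are those on which the results turn, written 5′ to 3′ with the seed in capitals, from RefSeq on GRCm38.p6. RefSeq gave a sequence for 236 of the 288 miRNAs tested. The first set shows 4 guide arms that share a seed, of which miR-181a-5p and miR-181b-5p were called lower in VM and the other pair was not, followed by the passenger arms of the 2 miR-181a hairpins, which also fell.
miR-181a-5p: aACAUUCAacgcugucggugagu
miR-181b-5p: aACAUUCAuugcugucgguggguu
miR-181c-5p: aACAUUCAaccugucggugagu
miR-181d-5p: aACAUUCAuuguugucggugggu
miR-181a-1-3p: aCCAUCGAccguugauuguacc
miR-181a-2-3p: aCCACCGAccguugacuguacc
Counted from 1 at the 5′ end, miR-181b-5p differs from miR-181a-5p by A9U, C10U and A21G, all outside the seed, and has 1 more base at its 3′ end.

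The second set holds the miRNAs that rose most, with the related members they are compared with. MiR-30a-5p differs from miR-30e-5p only by U13C, and miR-146a-5p from miR-146b-5p by A18G and C21U.
miR-30a-5p: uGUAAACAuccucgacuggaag
miR-30e-5p: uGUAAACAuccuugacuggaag
miR-21a-5p: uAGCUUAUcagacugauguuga
miR-21a-3p: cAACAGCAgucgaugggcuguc
miR-146a-5p: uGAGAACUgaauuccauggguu
miR-146b-5p: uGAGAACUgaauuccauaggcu
miR-182-5p: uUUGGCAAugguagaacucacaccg
miR-96-5p: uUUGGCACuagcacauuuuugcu
miR-183-5p: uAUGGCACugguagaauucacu
miR-340-5p: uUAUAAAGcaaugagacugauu
miR-203-3p: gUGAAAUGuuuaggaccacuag

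The third set shows the other large decreases, and let-7 members that share a seed but moved in different directions.
miR-211-5p: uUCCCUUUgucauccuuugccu
miR-99b-5p: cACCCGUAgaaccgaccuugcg
miR-125a-5p: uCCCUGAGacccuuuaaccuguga
let-7e-5p: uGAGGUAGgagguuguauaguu
let-7c-5p: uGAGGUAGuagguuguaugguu
let-7g-5p: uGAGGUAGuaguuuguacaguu
let-7i-5p: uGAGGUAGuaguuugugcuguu
miR-98-5p: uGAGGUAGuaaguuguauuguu

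Library totals were 2714219 and 3278451 counts in adult VM, 2056813 and 2990544 in adult TN, and 1577031 to 3006539 in the neonatal libraries. Of 1978 mature names, 745 had a count in an adult library and 288 reached the level for testing, at least 10 CPM (counts per 1000000) in at least 2 of the 7 libraries. That level was applied before scaling, and the CPM values given here are scaled by TMM factors. In adult cells 112 of the 288 (38.9%) passed the edgeR quasi-likelihood test at an adjusted p of 0.05, 67 higher in VM (23.3%) and 45 lower (15.6%). In all 112 both VM libraries lay on the same side of both TN libraries, as they did for 205 of the 288 (71.2%) in all, 109 with VM above TN (37.8%) and 96 with VM below (33.3%). The count depended on the TN libraries, each of which serves as the only TN sample when the other is left out. It was 51 without adult TN replicate 1, with 24 higher and 27 lower, and 23 without adult TN replicate 2, with 12 higher and 11 lower. Scaled by library totals alone, 78 were higher and 35 lower, and the median difference over all tested miRNAs moved from 0.09 to 0.20 on the log2 scale. With a correction for GC content chosen after seeing the data, 69 of 236 passed (29.2%), 36 higher (15.3%) and 33 lower (14.0%).

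**Figure D1:**
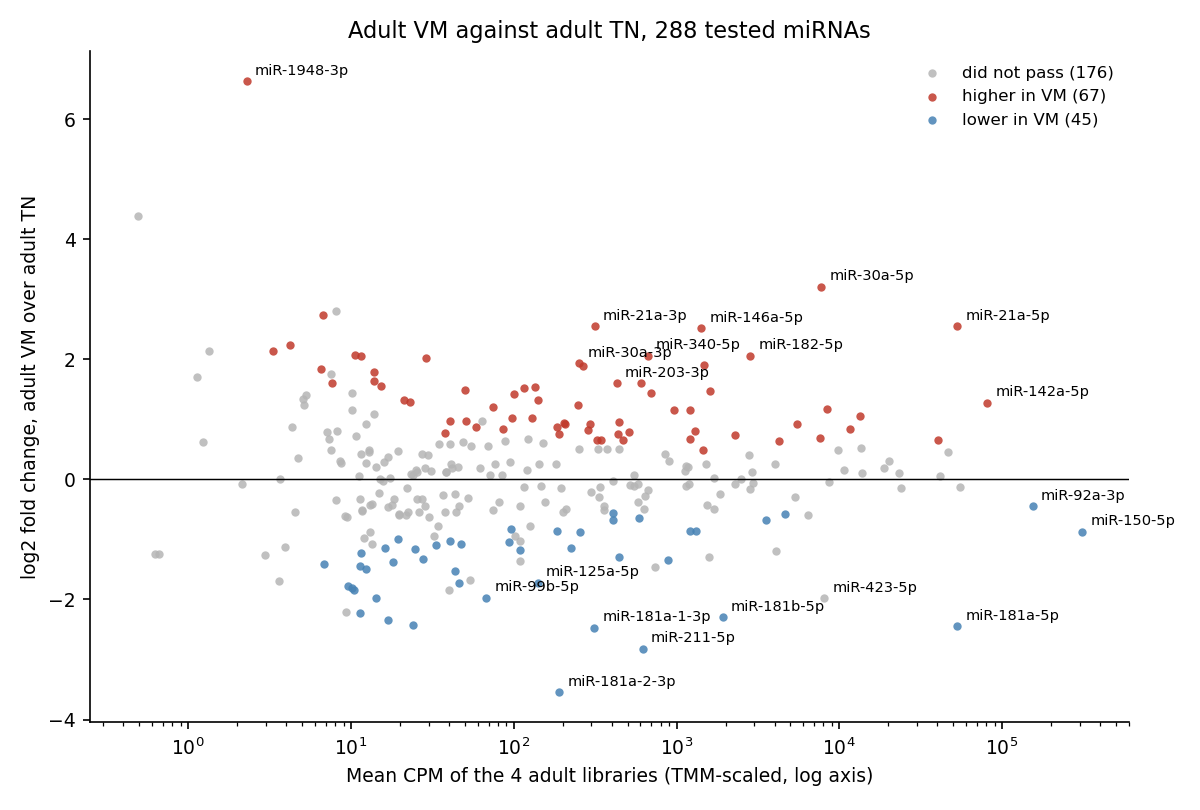
Each point is 1 of the 288 tested miRNAs, with its mean CPM over the 4 adult libraries on a log axis and its fitted log2 fold change of adult VM over adult TN. The 67 red points passed the edgeR test higher in VM and the 45 blue points lower, miR-30a-5p and miR-181a-2-3p stand farthest from zero among miRNAs above 50 CPM, and miR-1948-3p is listed at 0 in both TN libraries, so that its position is no measure of a fold.

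In the miR-181 family 2 guide arms and the passenger arms of both miR-181a hairpins were lower in VM. MiR-181a-5p stood at 16417 and 16420 CPM in the VM libraries against 73769 and 104380 in the TN libraries. VM cells were thus 5.43-fold lower, the VM replicates lying close together and both far below TN (log2 fold change -2.44 with SE 0.20, edgeR adjusted p = 4.29e-06). MiR-181b-5p was at 675 and 633 CPM in VM and at 2704 and 3682 in TN (log2 fold change -2.29 with SE 0.22, edgeR adjusted p = 8.58e-06). Its groups were also well apart.

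The remaining guide arms of the family did not share this. MiR-181c-5p was at 10256 and 12649 CPM in VM and at 7428 and 8874 in TN, with VM above TN in every library (log2 fold change 0.49 with SE 0.19, edgeR adjusted p = 0.0523). MiR-181d-5p was at 857 and 1128 CPM in VM and at 765 and 831 in TN (log2 fold change 0.31, edgeR adjusted p = 0.225). So 2 of the 4 tested members fell and 2 did not pass, beside a background of 15.6% lower, and the sum of the family went from 84666 and 117767 CPM in TN to 28204 and 30829 in VM. These counts were the same with RLE and upper quartile factors and without either TN library, while with library totals, or when adult VM replicate 1 was left out, 1 member passed as higher.

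MiR-181a-5p and miR-181b-5p are encoded at both of 2 loci, Mir181a-1 and Mir181b-1 at chr1:137966455-137966718, in an intron of the transcript Gm4258, and Mir181a-2 and Mir181b-2 at chr2:38852735-38853918, with no host gene on the strand (mm10 coordinates from RefSeq, host genes from GENCODE M21). Guide-arm reads do not tell these loci apart, whereas the passenger arms differ in sequence. MiR-181a-1-3p was at 91.4 and 98.9 CPM in VM and at 469 and 584 in TN, 5.53-fold lower in VM (log2 fold change -2.47 with SE 0.21, edgeR adjusted p = 4.29e-06). MiR-181a-2-3p was at 30.6 and 29.7 CPM in VM and at 292 and 410 in TN, 11.6-fold lower (log2 fold change -3.54 with SE 0.25, edgeR adjusted p = 1.38e-06). Products of both miR-181a hairpins were therefore lower in VM. The passenger arm miR-181c-3p, from another locus, was at 287 and 301 CPM in VM and at 179 and 237 in TN and did not pass (log2 fold change 0.50, edgeR adjusted p = 0.0676). It passed as higher with library totals (0.61, edgeR adjusted p = 0.0185) and with the GC correction (0.77, edgeR adjusted p = 0.0156).

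MiR-30a-5p rose more than any other miRNA above 50 CPM. It was at 11040 and 16902 CPM in VM and at 1451 and 1572 in TN, 9.24-fold higher in VM (log2 fold change 3.21 with SE 0.23, edgeR adjusted p = 1.38e-06). The lowest VM library was several times the highest TN library. The other arm of the hairpin, miR-30a-3p, was at 284 and 516 CPM in VM and at 101 and 109 in TN (log2 fold change 1.93 with SE 0.27, edgeR adjusted p = 3.35e-04). Mir30a lies at chr1:23272269-23272339 with no host gene on its strand.

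Members of the same seed family moved less. MiR-30e-5p, which differs from miR-30a-5p at 1 base and lies in an intron of Nfyc at chr4:120772606-120772697, was at 10131 and 13098 CPM in VM and at 5294 and 5023 in TN (log2 fold change 1.17 with SE 0.19, edgeR adjusted p = 7.97e-04). It kept that call without adult TN replicate 1 and lost it without adult TN replicate 2 (edgeR adjusted p = 0.057). MiR-30b-5p (log2 fold change -0.06), miR-30c-5p (-0.29) and miR-30d-5p (-0.15) did not pass, although their levels in TN cells were as high as 26745 CPM for miR-30d-5p. In TN cells miR-30e-5p was therefore above miR-30a-5p, and in VM cells their CPM ranges overlapped. Reads of near-identical members can be assigned to either, so the split between miR-30a-5p and miR-30e-5p rests on the authors' counting. Summed over the members of this seed with a RefSeq sequence, miR-30a-5p, miR-30c-5p and miR-30e-5p among them, VM cells had 24768 and 33668 CPM and TN cells 13403 and 13229 (log2 fold change 1.13 with SE 0.15, edgeR adjusted p = 1.65e-05). That sum leaves out miR-30b-5p and miR-30d-5p, for which no sequence was used. All 5 guide arms of the family together were at 54718 and 57013 CPM in VM and at 38621 and 42775 in TN, a smaller difference.

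Among 12 tested miRNAs known to respond to T cell activation, 9 were higher in VM, 1 was lower and 2 did not pass, beside a background of 23.3% higher. The list was chosen with earlier results of these data known, so the count describes its members and is no test. Its members are not independent, as miR-182-5p, miR-183-5p and miR-96-5p share a cluster and the miR-146 members a seed. MiR-210-3p and miR-31-5p reached the level for testing only through the neonatal libraries. MiR-96-5p reached it only through VM libraries, so its call was favoured by the filter. The list's median was 1.50 on the log2 scale, against 0.09 over all tested miRNAs. The list had 9 higher and 1 lower under each of the 4 other scalings, 8 and 1 with the GC correction, 6 and 1 without adult TN replicate 1, and 6 and 0 without adult TN replicate 2. MiR-21a-5p was at 71518 and 110308 CPM in VM and at 16348 and 14805 in TN, 5.84-fold higher in VM (log2 fold change 2.55 with SE 0.22, edgeR adjusted p = 4.29e-06). Its hairpin overlaps an exon of Vmp1 at chr11:86584067-86584158. The passenger arm miR-21a-3p was at 551 and 524 CPM in VM and at 88.5 and 94.6 in TN, with the same fitted log2 fold change of 2.55 (edgeR adjusted p = 8.77e-06). The GC content was 36.4% for the guide and 59.1% for the passenger arm, and with the GC correction their log2 fold changes were 1.76 and 2.81.

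MiR-146a-5p, a brake on NF-kB through TRAF6 and IRAK1, was at 2817 and 2031 CPM in VM and at 371 and 471 in TN, 5.75-fold higher in VM (log2 fold change 2.52 with SE 0.23, edgeR adjusted p = 5.58e-06). MiR-146b-5p, of the same seed but another locus, was at 84.5 and 64.3 CPM in VM and at 25.9 and 27.4 in TN (log2 fold change 1.48 with SE 0.27, edgeR adjusted p = 0.00134). The groups of neither miRNA overlapped. MiR-155-5p, cut from the Bic transcript Mir155hg that activated lymphocytes induce, was at 907 and 1117 CPM in VM and at 380 and 367 in TN (log2 fold change 1.44 with SE 0.20, edgeR adjusted p = 2.52e-04). MiR-221-3p was at 200 and 279 CPM in VM and at 143 and 119 in TN (log2 fold change 0.87 with SE 0.24, edgeR adjusted p = 0.0139), and lost its call without adult TN replicate 1 (edgeR adjusted p = 0.0912) or 2 (0.176). MiR-210-3p, a target of the hypoxia response, was low throughout, at 5.23 and 8.64 CPM in VM and 2.16 and 0.856 in TN (log2 fold change 2.24, edgeR adjusted p = 0.0135), and did not pass without adult TN replicate 1 (0.0525) or 2 (0.161).

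The 3 miRNAs of the miR-183, miR-96 and miR-182 cluster, which lies at chr6:30165918-30169737 with no host gene on its strand, were all called higher. Among all tested miRNAs 23.3% were. MiR-182-5p, known to be induced by interleukin-2 in T cells and to target Foxo1, was at 4180 and 4969 CPM in VM and at 1004 and 1197 in TN, 4.16-fold higher (log2 fold change 2.06 with SE 0.20, edgeR adjusted p = 8.58e-06). MiR-183-5p was at 166 and 176 CPM in VM and at 61.5 and 58.2 in TN (log2 fold change 1.52 with SE 0.22, edgeR adjusted p = 3.00e-04). MiR-96-5p was far less abundant, at 11.7 and 11.4 CPM in VM and 2.70 and 4.71 in TN (log2 fold change 1.60 with SE 0.51, edgeR adjusted p = 0.025). It reached the level for testing only through VM libraries, where it was the higher in adult cells, so its call adds no support to the count of 3. It lost its call with the GC correction and without either TN library, which left 2 of 3 higher.

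Against the direction of the list, miR-132-3p was at 4.83 and 6.22 CPM in VM and at 19.4 and 36.8 in TN (log2 fold change -2.34 with SE 0.48, edgeR adjusted p = 0.0032). It is known as a miRNA that CREB induces, and it did not pass without adult TN replicate 2 (edgeR adjusted p = 0.0878). MiR-31-5p (log2 fold change -0.35) and miR-222-3p (0.26) were the other members that did not pass.

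**Figure D2:**
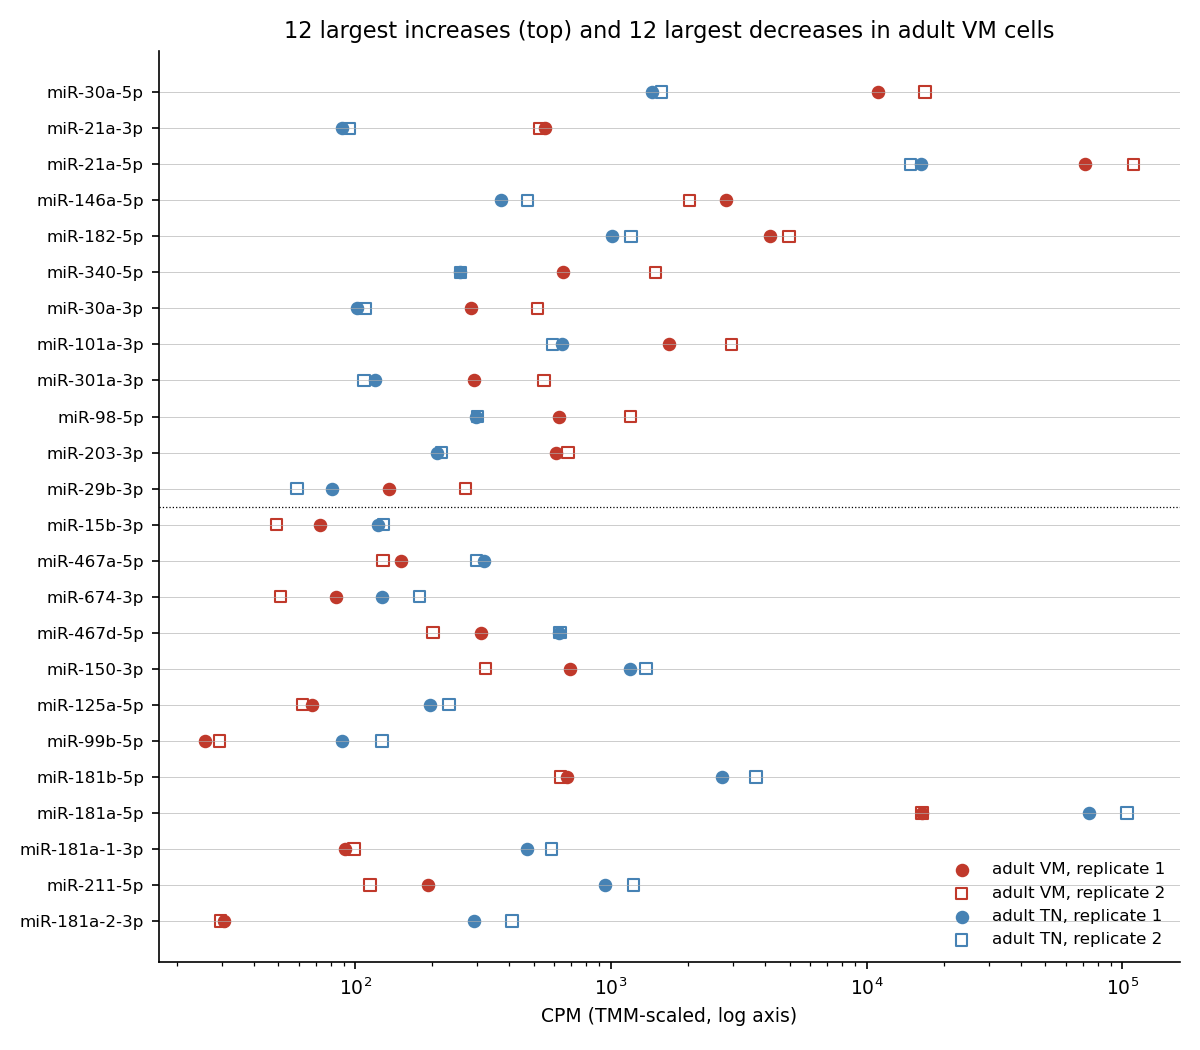
CPM on a log axis in each of the 4 adult libraries for the 12 largest increases (top) and the 12 largest decreases (bottom) among miRNAs that passed with a mean of at least 50 CPM and no overlap of groups. Filled circles are replicate 1 and open squares replicate 2, and for miR-340-5p and miR-98-5p the VM replicates lie farther apart than the TN replicates.

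The other large increases were of miRNAs with low GC content, and most of them had VM replicates that differed from each other. MiR-340-5p was at 648 and 1493 CPM in VM and at 257 in each TN library (log2 fold change 2.06 with SE 0.40, edgeR adjusted p = 0.00812). MiR-101a-3p, which targets Ezh2, was at 1677 and 2956 CPM in VM and at 644 and 590 in TN (log2 fold change 1.91 with SE 0.29, edgeR adjusted p = 0.00109). MiR-301a-3p, from an intron of Ska2, was at 291 and 547 CPM in VM and at 119 and 108 in TN (log2 fold change 1.88 with SE 0.29, edgeR adjusted p = 0.00109). In each of these, VM replicate 2 was the higher and the lower VM library still stood above both TN libraries. MiR-29b-3p was at 135 and 270 CPM in VM and at 80.9 and 59.1 in TN (log2 fold change 1.53 with SE 0.38, edgeR adjusted p = 0.0132). Without adult TN replicate 2 none of these 4 passed (edgeR adjusted p = 0.0703, 0.057, 0.057 and 0.151), and miR-29b-3p did not pass without adult TN replicate 1 either (0.0872). With the GC correction miR-340-5p had a log2 fold change of 0.76 (edgeR adjusted p = 0.0675) and miR-29b-3p one of 0.65 (0.129), while miR-101a-3p (0.94) and miR-301a-3p (1.25) kept their calls.

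MiR-203-3p had closer replicates, at 611 and 679 CPM in VM and at 208 and 217 in TN (log2 fold change 1.60 with SE 0.19, edgeR adjusted p = 7.02e-05). It is an epidermal miRNA that targets p63, and was listed with the miR-200 family, known for repressing Zeb1 and Zeb2. In that list 5 of 6 tested members were higher and 1 did not pass, beside a background of 23.3% higher. MiR-200a-3p was at 215 and 185 CPM in VM and at 79.9 and 79.6 in TN (log2 fold change 1.33 with SE 0.23, edgeR adjusted p = 0.00109). The 3 hairpins at chr4:156053905-156055750, in introns of Ttll10, were all higher, with log2 fold changes of 1.33 for miR-200a-3p, 0.76 for miR-200b-3p and 1.20 for miR-429-3p. At the other locus on chromosome 6, miR-141-3p was higher (0.65) and miR-200c-3p did not pass (-0.46). The count of higher members was 3 without adult TN replicate 1, 2 without adult TN replicate 2 and 2 with the GC correction, which miR-203-3p (1.09) and miR-200a-3p (0.82) passed.

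MiR-211-5p fell more than any miRNA above 50 CPM other than miR-181a-2-3p. It was at 193 and 114 CPM in VM and at 943 and 1226 in TN, 7.07-fold lower in VM (log2 fold change -2.82 with SE 0.29, edgeR adjusted p = 4.95e-05). The higher VM library was far below the lower TN library. Its hairpin lies in an intron of Trpm1, a melanocyte channel gene, at chr7:64205806-64205911. The near relative miR-204-5p, which shares the seed, was not among the tested miRNAs.

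MiR-99b-5p and miR-125a-5p, from families that are abundant in blood stem cells, fell as well. MiR-99b-5p was at 25.8 and 29.4 CPM in VM and at 89.0 and 127 in TN (log2 fold change -1.97 with SE 0.29, edgeR adjusted p = 3.35e-04). MiR-125a-5p was at 67.6 and 62.2 CPM in VM and at 196 and 232 in TN (log2 fold change -1.72 with SE 0.24, edgeR adjusted p = 2.52e-04). Their neighbour let-7e-5p was at 20.5 and 21.8 CPM in VM and at 48.0 and 42.8 in TN (log2 fold change -1.10 with SE 0.30, edgeR adjusted p = 0.0133). Mir125a and Mirlet7e lie together at chr17:17830352-17830879, within Spaca6. MiR-99b-5p and miR-125a-5p kept their calls without either TN library, and let-7e-5p lost its call in both cases (edgeR adjusted p = 0.0663 and 0.0654). Of the 4 tested members of the miR-99 and miR-125 list, 2 were lower, beside a background of 15.6% lower. MiR-10a-5p (0.67) and miR-10b-5p (0.01) did not pass.

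MiR-150-5p was the most abundant miRNA in all 4 adult libraries, with 21.0% and 18.3% of the counts in VM and 32.9% and 34.0% in TN. Its level was 229398 and 207897 CPM in VM and 365659 and 435179 in TN (log2 fold change -0.87 with SE 0.16, edgeR adjusted p = 0.00176). Its passenger arm miR-150-3p was at 690 and 322 CPM in VM and at 1183 and 1370 in TN (log2 fold change -1.34 with SE 0.33, edgeR adjusted p = 0.0161). Both arms were below TN in every VM library, and the passenger arm did not pass without adult TN replicate 2 (edgeR adjusted p = 0.0918). The remaining decreases among the 12 largest were miR-467d-5p at -1.30, miR-674-3p at -1.18, miR-467a-5p at -1.14 and miR-15b-3p at -1.05 (log2). Of these, miR-15b-3p did not pass without adult TN replicate 1 (edgeR adjusted p = 0.0983) or 2 (0.14), and miR-674-3p without replicate 2 (0.118).

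Of the 10 most abundant miRNAs, which made up 71.6% and 70.6% of counts in VM and 77.1% and 77.7% in TN, 3 were higher in VM, 3 were lower and 4 did not pass. Over all tested miRNAs 23.3% were higher and 15.6% lower. MiR-142a-5p, a miRNA of all blood cells, was at 86471 and 142992 CPM in VM and at 51117 and 43348 in TN (log2 fold change 1.28 with SE 0.27, edgeR adjusted p = 0.00862). It did not pass without adult TN replicate 1 (edgeR adjusted p = 0.0552) or 2 (0.104), and with the GC correction its log2 fold change was 0.32 (0.189). MiR-27b-3p was at 47331 and 51079 CPM in VM and at 31405 and 31493 in TN (log2 fold change 0.65, edgeR adjusted p = 0.00856), and lost its call without adult TN replicate 1 (0.0983) or 2 (0.104). MiR-92a-3p was at 139964 and 121022 CPM in VM and at 162538 and 194239 in TN (log2 fold change -0.45, edgeR adjusted p = 0.0496). This call at the edge of the threshold was absent under library totals and without adult TN replicate 2. It was also absent with the GC correction (log2 fold change -0.23, edgeR adjusted p = 0.18). MiR-26a-5p (log2 fold change -0.13), let-7f-5p (0.45), miR-16-5p (0.05) and miR-30d-5p (-0.15) did not pass.

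The let-7 family, which represses Lin28 and cell growth genes, split. Its counts stand beside a background of 23.3% higher and 15.6% lower. Of its 9 tested members, let-7g-5p (log2 fold change 1.05), let-7i-5p (0.84) and miR-98-5p (1.61) were higher, let-7b-5p (-0.86), let-7c-5p (-0.68) and let-7e-5p (-1.10) lower, and let-7a-5p, let-7d-5p and let-7f-5p did not pass. Let-7g-5p was at 15885 and 20169 CPM in VM and at 8512 and 8872 in TN (SE 0.18, edgeR adjusted p = 0.00109). Let-7c-5p was at 2465 and 3010 CPM in VM and at 3995 and 4748 in TN (SE 0.20, edgeR adjusted p = 0.0185). These members share 1 seed and differ from let-7a-5p at few bases, G12U and U18C in let-7g-5p, G12U, A17G, U18C and A19U in let-7i-5p, G11A and A19U in miR-98-5p, A19G in let-7c-5p, A17G and A19G in let-7b-5p and U9G in let-7e-5p. The split of reads between them is therefore uncertain, and their sum was 113711 and 104888 CPM in VM and 73919 and 84618 in TN. The seed sum had a log2 fold change of 0.32 (SE 0.10, edgeR adjusted p = 0.0245), which did not pass without adult TN replicate 1 (0.112) or 2 (0.194).

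The let-7 calls did not hold under every setting. With RLE factors, or with the replicate number as a block, 3 members were higher and 4 lower. The added lower member was let-7d-5p, at 3553 and 1392 CPM in VM and at 5357 and 6017 in TN. Its log2 fold change was -1.20 in the main fit (edgeR adjusted p = 0.0581) and -1.29 with RLE factors (0.0412). The family had 5 members higher and 3 lower under library totals, 1 and 2 without adult TN replicate 1, 0 and 0 without adult TN replicate 2, and 0 and 3 with the GC correction. The median of the family was 0.45 on the log2 scale and -0.55 with the GC correction. Under the correction let-7b-5p (-1.07), let-7c-5p (-1.19) and let-7e-5p (-1.61) were the 3 lower members.

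**Figure D3:**
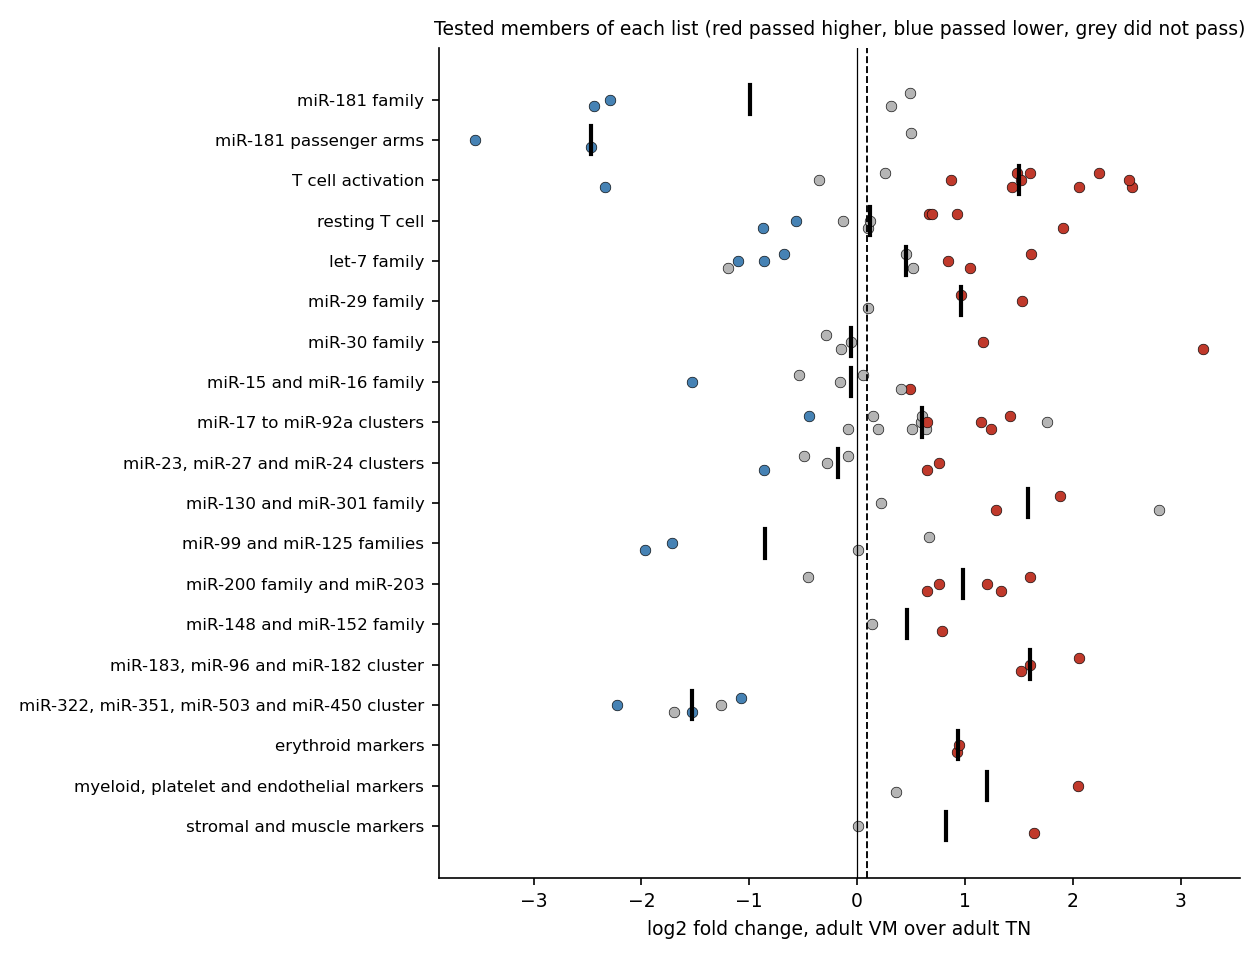
The log2 fold change of adult VM over adult TN for the tested members of each list, with the list's median as a short bar and the median of all tested miRNAs (0.09) as a dashed line. The activation list lies to the right of zero apart from miR-132-3p and miR-31-5p, the miR-181 lists hold the points farthest to the left, and the let-7 family lies on both sides.

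Other lists changed less or in part. Of 9 miRNAs known from resting T cells, 4 were higher (miR-101a-3p, miR-139-5p, miR-26b-5p and miR-142a-3p), 2 lower (miR-150-5p and miR-342-3p at -0.57) and 3 did not pass, beside a background of 23.3% higher and 15.6% lower. The median was 0.12, against 0.09 over all tested miRNAs. Their summed level was 336823 and 308328 CPM in VM and 459627 and 540116 in TN, most of it miR-150-5p. Without adult TN replicate 1 the counts were 1 higher and 2 lower, and without adult TN replicate 2 they were 0 and 1. In the miR-17 to miR-92a clusters, known for driving lymphocyte proliferation, 4 of 13 were higher, 1 lower and 8 did not pass, near the background of 23.3% higher and 15.6% lower. MiR-19b-3p was at 1224 and 2091 CPM in VM and at 758 and 737 in TN (log2 fold change 1.15, edgeR adjusted p = 0.00368). Along the cluster at chr14:115043671-115044506, in Mir17hg, miR-19a-3p (1.42), miR-19b-3p and miR-20a-5p (1.24) were higher and miR-92a-3p lower. None of the 4 higher members passed with the GC correction or without either adult TN library.

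The family counts in this paragraph stand beside a background of 23.3% higher and 15.6% lower. In the miR-29 family, 2 of 3 were higher, miR-29b-3p and miR-29c-3p (log2 fold change 0.96). The far more abundant miR-29a-3p was at 15123 and 13292 CPM in VM and at 14080 and 12342 in TN and did not pass (0.10). No member passed with the GC correction or without adult TN replicate 2, and 1 passed without adult TN replicate 1. In the miR-15 and miR-16 family 1 of 6 was higher (miR-15a-5p, 0.49) and 1 lower (miR-322-5p, -1.53), near that background. The call of miR-15a-5p (edgeR adjusted p = 0.05) was absent with RLE and upper quartile factors and without adult TN replicate 1 (0.177) or 2 (0.298), and its log2 fold change was -0.02 with the GC correction. In the miR-23, miR-27 and miR-24 clusters 2 of 6 were higher, miR-24-3p and miR-27b-3p, and miR-23a-3p was lower (-0.86). Without adult TN replicate 1 these counts were 0 and 1, and without adult TN replicate 2 they were 0 and 0. Of 4 tested miR-130 and miR-301 relatives 2 were higher (miR-301a-3p and miR-301b-3p at 1.29), and 1 was higher without either TN library or with the GC correction. In the miR-148 and miR-152 family 1 of 2 was higher, miR-148a-3p (0.79), which did not pass without adult TN replicate 1 (edgeR adjusted p = 0.0912) or 2 (0.139) or with the GC correction (0.242).

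The X-linked cluster of miR-322, miR-351, miR-503 and miR-450 lay below TN in all 5 tested members. Of these 3 passed as lower, beside a background of 15.6% lower. MiR-322-5p was at 20.5 and 23.9 CPM in VM and at 59.4 and 69.3 in TN (log2 fold change -1.53 with SE 0.26, edgeR adjusted p = 0.00109). Its passenger arm miR-322-3p was at 5.23 and 2.77 CPM in VM and at 16.2 and 21.0 in TN (-2.23, edgeR adjusted p = 0.0028), and miR-351-5p at 33.0 and 28.0 CPM in VM and at 59.9 and 68.5 in TN (-1.08, edgeR adjusted p = 0.0032). MiR-450a-5p (-1.70) and miR-450b-5p (-1.26) were below 10 CPM in each adult library and did not pass. They reached the level for testing only through the neonatal libraries. The count of lower members was 3 without adult TN replicate 1, 1 without adult TN replicate 2 and 5 with the GC correction.

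Of 81 hairpins with both arms tested, both arms passed in the same direction in 10, 4 of them higher and 6 lower, 1 arm passed in 40, no arm passed in 31 and none passed in opposite directions. Over all tested miRNAs 38.9% passed. Some hairpins share a guide arm, as both miR-181a hairpins share miR-181a-5p, so the pairs are not independent. The difference between arms was not itself tested. The pairs that were higher in both arms were those of miR-21a, miR-30a, miR-98 and miR-142a, and the pairs that were lower were those of miR-181a-1, miR-181a-2, miR-150, miR-322, miR-339 and let-7b. With the GC correction neither arm of miR-98, miR-142a or miR-339 passed. Both arms of the other pairs kept their calls, apart from miR-150-5p, which has no sequence and was not tested there. The 6 widest differences between arms all involved an arm with a mean below 30 CPM. For example, miR-7a-5p was at 26.6 and 66.0 CPM in VM and at 11.3 and 11.6 in TN (log2 fold change 2.02), and miR-7a-1-3p at 105 and 103 in VM and 85.8 and 84.3 in TN (0.29). MiR-16-1-3p was at 14.5 and 19.7 CPM in VM and at 3.78 and 4.28 in TN (2.07), beside 0.05 for the guide arm miR-16-5p, which another hairpin also yields. Neither miR-7a-5p nor miR-16-1-3p passed without adult TN replicate 1 (edgeR adjusted p = 0.0912 and 0.0548) or 2 (0.104 and 0.0703). The other wide pairs were those of miR-18b, miR-126a, miR-210 and miR-222, with differences of 2.89, 1.69, -1.63 and 1.58 between the 5p and the 3p arm on the log2 scale.

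Counts were also summed over the miRNAs of each seed that have a RefSeq sequence, so that a split of reads between those members does not bear on the sum. Members without a sequence, such as miR-30b-5p, miR-30d-5p and miR-301b-3p, are left out of these sums. These sums were scaled with TMM factors of their own, so their CPM differ slightly from sums over the single miRNAs. Of 181 seed sums tested, 67 passed (37.0%), 34 higher (18.8%) and 33 lower (18.2%). Under library totals the split was 50 higher and 18 lower, and the count was 34 without adult TN replicate 1 and 21 without adult TN replicate 2. The miR-181 seed ACAUUCA, summed over its 4 members, was at 26691 and 30025 CPM in VM and at 93627 and 120417 in TN (log2 fold change -1.92 with SE 0.13, edgeR adjusted p = 8.74e-08). The miR-146 seed GAGAACU was at 2746 and 2040 CPM in VM and at 439 and 509 in TN (2.33, SE 0.20, edgeR adjusted p = 1.82e-07). For CCCUGAG, the seed of miR-125a-5p and miR-351-5p, the sum was 95.6 and 88.5 CPM in VM and 283 and 310 in TN (-1.69, SE 0.19, edgeR adjusted p = 5.27e-06). Among seed sums that passed with a mean of at least 50 CPM, those of miR-21a-5p, miR-21a-3p, miR-182-5p and miR-340-5p completed the 5 largest increases, and those of miR-181a-2-3p, miR-211-5p and miR-99b-5p the 5 largest decreases. Of these 10 seed sums, only that of miR-340-5p did not pass without adult TN replicate 1 (edgeR adjusted p = 0.10) or 2 (0.124). The seed sums of the miR-17 group (0.06) and the miR-15 and miR-16 group (-0.10) did not pass.

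The base composition of the miRNAs moved with the difference between subsets. The median GC content was 40.9% among the 55 higher miRNAs with a RefSeq sequence, 50.0% among the 30 lower ones and 50.0% among the 151 that did not pass. By GC content, 14 of 19 miRNAs up to 35% were higher and 0 lower, a group of fewer than 20. Between 35 and 45%, 24 of 63 were higher and 4 lower, between 45 and 55%, 14 of 94 were higher and 14 lower, and above 55%, 3 of 60 were higher and 12 lower. Across the 236 miRNAs, which share libraries and are not independent replicates, the log2 difference between adult VM and TN had a Pearson correlation of -0.37 with GC content (Spearman -0.44). The difference between the 2 VM replicates had one of 0.32 and that between the 2 TN replicates -0.13. Taken 1 VM library at a time against the TN mean, the values were -0.29 for VM replicate 1 and -0.41 for VM replicate 2. A first base of U was found in 70.9% of the higher, 40.0% of the lower and 33.1% of the other miRNAs.

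When each library was corrected for its own trend with GC content, 30 of the 55 higher and 24 of the 30 lower miRNAs kept their call, and 6 and 9 more became higher and lower. MiR-30a-5p (log2 fold change 2.98), miR-21a-3p (2.81), miR-146a-5p (2.03), miR-182-5p (2.01) and miR-21a-5p (1.76) remained higher. MiR-181a-2-3p (-3.27), miR-211-5p (-3.03), miR-181a-5p (-2.49), miR-181b-5p (-2.47) and miR-181a-1-3p (-2.42) remained lower. Of the 22 of the 24 largest changes that have a sequence, 19 kept their call, and miR-98-5p (0.55), miR-340-5p and miR-29b-3p lost it. MiR-155-5p went from 1.44 to 0.57 and still passed (edgeR adjusted p = 0.0387). The source of the relation with GC content was not tested.

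**Figure D4:**
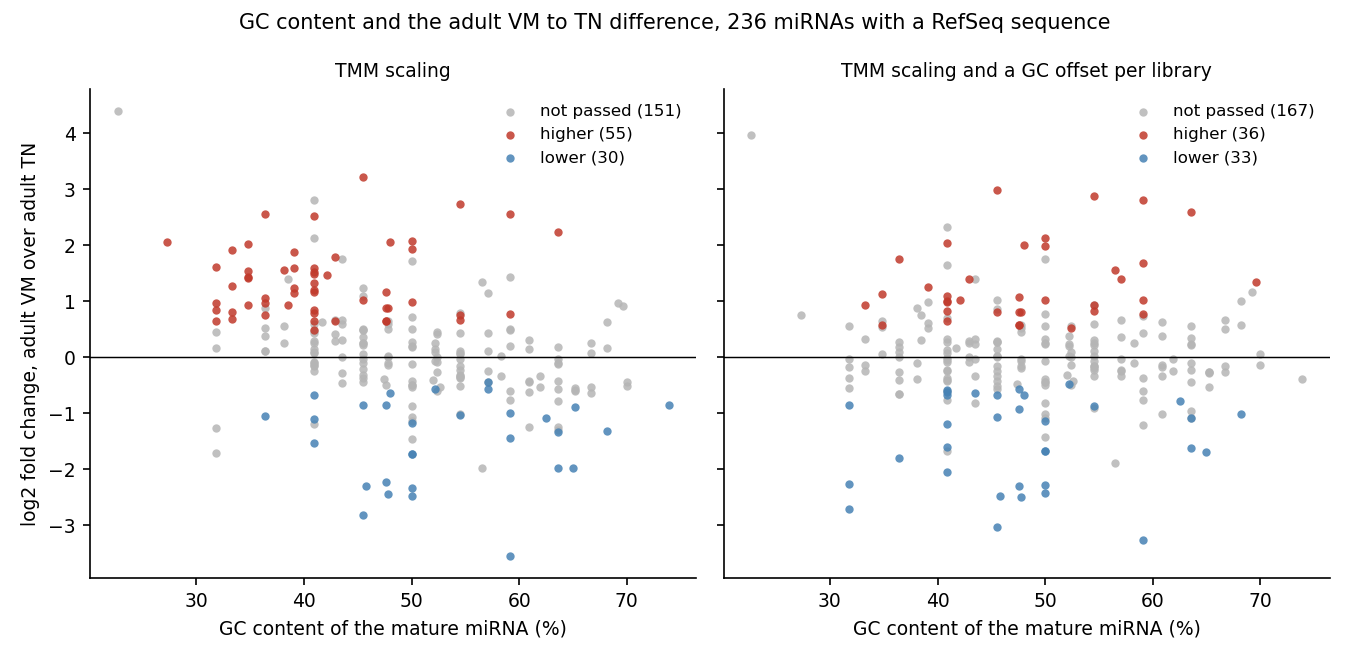
GC content of each of 236 mature miRNAs in percent against its log2 fold change of adult VM over adult TN, with TMM scaling (left) and with a GC offset per library as well (right). On the left the red points lie mostly at low GC content and on the right the 36 higher and 33 lower miRNAs spread over the range.

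VM replicates lay farther apart than TN replicates. Of the 288 miRNAs, 30 differed by more than 2-fold between the 2 VM libraries and 10 between the 2 TN libraries, and the SD of the log2 difference was 0.71 in VM and 0.45 in TN. The widest gap among miRNAs above 50 CPM was in miR-423-5p, at 6330 and 194 CPM in VM and at 11026 and 14688 in TN. Its VM libraries were both below TN, and it did not pass (log2 fold change -1.98 with SE 1.73, edgeR adjusted p = 0.44). MiR-744-5p was at 1375 and 438 CPM in VM and at 1913 and 2566 in TN, and miR-25-5p at 153 and 31.1 in VM and 142 and 172 in TN. MiR-466g and miR-6240 completed the 5 widest gaps. In 4 of the 5, VM replicate 1 was near TN levels or nearer to them than replicate 2, and in miR-6240 both groups had 1 high and 1 low library, at 149 and 20.4 CPM in VM and 72.3 and 15.0 in TN.

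Markers of other cells were low in the adult libraries. Among 5 erythroid markers, miR-451a was at 2.42 and 3.11 CPM in VM and at 2.16 and 2.14 in TN, and miR-144-3p and miR-144-5p were at 0 in both TN libraries and at most 1.21 CPM in VM. MiR-486a-5p, the abundant member of that list, was at 246 and 294 CPM in VM and at 121 and 162 in TN (log2 fold change 0.93, edgeR adjusted p = 0.00856), and lost its call without adult TN replicate 1 (0.133) or 2 (0.057). Its copy miR-486b-5p had nearly the same values, and reads cannot be told apart between them. The summed level of the erythroid list was 494 and 593 CPM in VM and 243 and 325 in TN. Of 4 myeloid, platelet and endothelial markers, summed at 28.2 and 42.2 CPM in VM and 10.3 and 10.7 in TN, miR-126a-5p passed as higher, at 14.9 and 22.5 CPM in VM and 3.24 and 5.56 in TN. The myeloid miR-223-3p, below the level for testing, was at 5.64 and 15.6 CPM in VM and at 2.16 and 1.71 in TN.

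Of 9 stromal and muscle markers, summed at 27.4 and 50.1 CPM in VM and 15.6 and 30.4 in TN, miR-143-3p passed as higher, at 16.5 and 25.9 CPM in VM and 4.32 and 8.99 in TN. MiR-145a-5p, miR-214-3p, miR-1a-3p and miR-206-3p were at 0 in all 4 adult libraries. Neither miR-126a-5p nor miR-143-3p passed without adult TN replicate 1 (edgeR adjusted p = 0.0912 and 0.138) or 2 (0.0606 and 0.0606). The 3 liver and neuron markers summed to at most 1.62 CPM. The part of other cells in the differences above was not tested. In these bulk libraries, fewer cells of a type and less of a miRNA per cell cannot be told apart.

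The adult difference was set against that in neonatal cells by testing the difference between them, with neonatal TN as 1 library that is assumed to vary like the other groups. In neonatal cells 28 of 288 passed (9.72%), 9 higher in VM (3.12%) and 19 lower (6.60%). In the test of the difference between ages 23 passed (7.99%), 18 with a larger log2 fold change in adult cells (6.25%) and 5 with a smaller one (1.74%). With RLE factors the split was 14 and 8, and with upper quartile factors 12 and 18. The count was 9 without adult TN replicate 1, 6 without adult TN replicate 2, and 13 and 15 without neonatal VM replicates 1 and 2. It was 86 and 59 without adult VM replicates 1 and 2.

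MiR-30a-5p, so much higher in adult VM, was at 3641 and 3906 CPM in neonatal VM and at 3646 in neonatal TN. Its log2 fold change was 3.16 larger in adult than in neonatal cells (SE 0.33, edgeR adjusted p = 8.57e-05). MiR-182-5p was at 3460 and 3600 CPM in neonatal VM and at 4007 in neonatal TN, with a difference between ages of 2.24 (SE 0.30, edgeR adjusted p = 6.31e-04). Both were thus near the same level in the neonatal subsets. MiR-146a-5p was at 750 and 840 CPM in neonatal VM and 438 in neonatal TN, and its log2 fold change was 1.66 larger in adult cells (SE 0.34, edgeR adjusted p = 0.00976), a call lost without adult TN replicate 1 (0.137) or 2 (0.104) and without neonatal VM replicate 1 (0.0661). MiR-146b-5p went the other way in neonatal cells, at 125 and 108 CPM in VM and 262 in TN, a difference between ages of 2.65 (SE 0.39, edgeR adjusted p = 0.00108).

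MiR-151-3p had the smallest p of this test. It was at 2701 and 3035 CPM in adult VM, 1513 and 1924 in adult TN, 435 and 375 in neonatal VM and 2305 in neonatal TN, so that it was higher in adult VM (log2 fold change 0.74, edgeR adjusted p = 0.0132) and lower in neonatal VM (-2.51, edgeR adjusted p = 1.06e-05). The adult call was lost without adult TN replicate 1 (edgeR adjusted p = 0.193) or 2 (0.0774). Its other arm miR-151-5p (adult 0.21, neonatal -2.03) and miR-486a-5p (adult 0.93, neonatal -1.44) also passed, with differences of 2.24 and 2.37, the former not without adult TN replicate 2 (edgeR adjusted p = 0.0661). By contrast, the miR-181 products fell at both ages, with neonatal log2 fold changes of -2.88 for miR-181a-5p, -2.86 for miR-181b-5p, -2.53 for miR-181a-1-3p and -3.89 for miR-181a-2-3p, and miR-21a-5p rose at both (1.72 in neonatal cells). None of these 5 passed the test of the difference between ages, with edgeR adjusted p from 0.141 for miR-21a-5p to 0.947 for miR-181a-1-3p, which does not show that the ages were alike. In all, 22 miRNAs passed at both ages, 19.6% of the adult and 78.6% of the neonatal calls, 18 in the same direction and 4 in opposite directions.

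**Figure D5:**
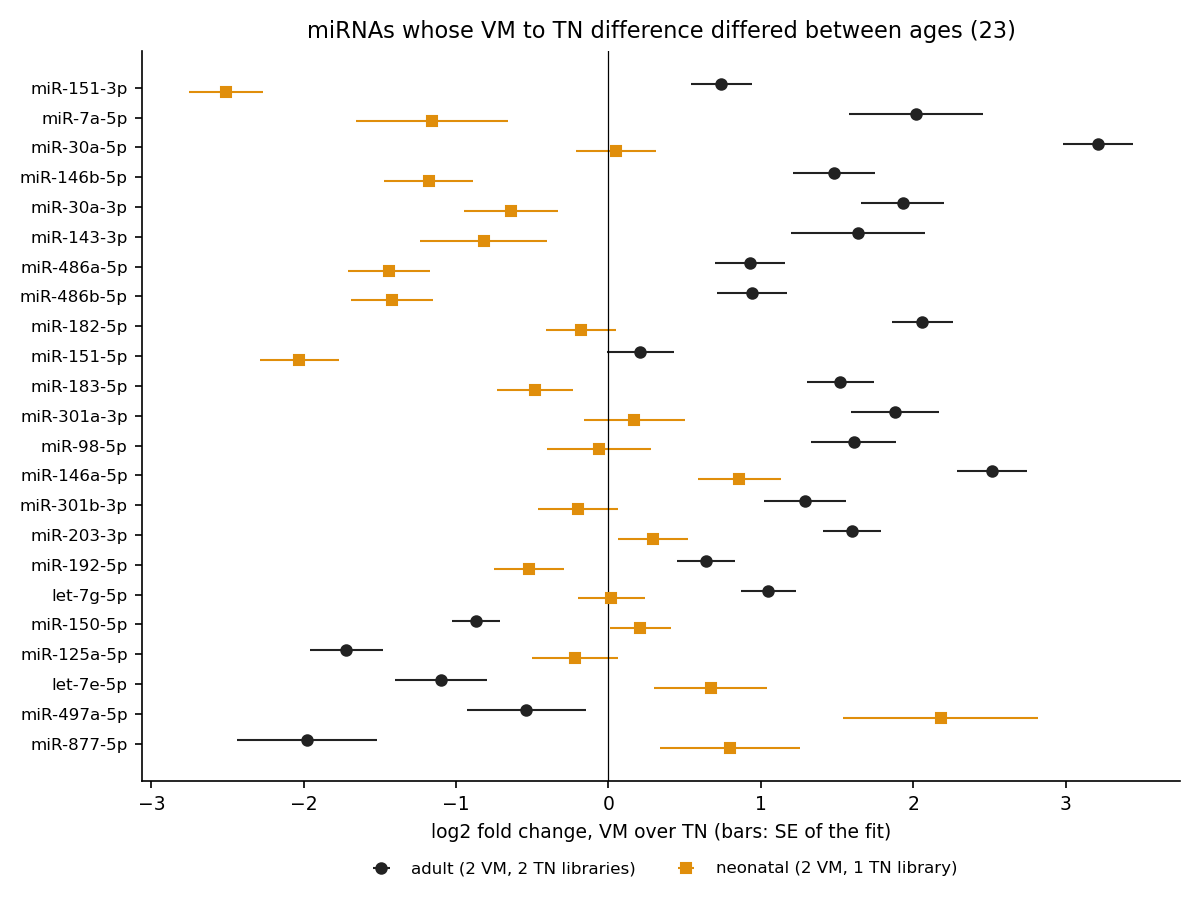
The log2 fold change of VM over TN, with SE of the fit as bars, in adult (black circles) and neonatal cells (orange squares) for the 23 miRNAs that passed the test of the difference between ages. MiR-30a-5p, miR-182-5p and miR-301a-3p lie near zero in neonatal cells, and miR-151-3p lies on opposite sides of zero at the 2 ages.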

How the data were processed

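The series holds 7 small RNA libraries of sorted mouse CD8+ T cells, made with the Illumina TruSeq kit per the labels' protocols. The authors deposited 1 table of expected counts, many of them fractional, for each mature arm of each precursor. The build is mm10 per the submitters' processing notes. Which aligner and counter made the table is not given in the sources used here. Values were summed per mature name and rounded, a shift of at most 0.5. The 288 names with at least 10 CPM in at least 2 of 7 libraries were scaled by TMM and tested with the robust quasi-likelihood test of edgeR 4.0.16 (R 4.3.3) in a cell means model of 4 groups with 3 residual degrees of freedom, and p-values were adjusted by Benjamini-Hochberg over all tested names at 0.05. Totals ran from 1577031 to 3278451, so before TMM scaling 1 CPM stood for 1.58 to 3.28 counts.

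Groups came from the titles. Named miRNAs were the 12 largest increases and decreases that passed without overlap at a mean of at least 50 CPM, the 10 most abundant, the 6 smallest p of the age difference, the 5 widest gaps between VM replicates, the 6 widest arm differences, the 5 largest seed sums each way, and members of 20 lists. Members and lists were chosen with earlier results of these data known. Sequences and coordinates came from RefSeq on GRCm38.p6, and host genes from GENCODE M21 on the same build. Clusters join hairpins within 10 kb on a strand.

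Alternatives were other scalings (RLE, library totals, upper quartile, library sizes without the 5 most abundant miRNAs), other filters, DESeq2 1.42.0, limma voom (3.58.1), the replicate number as a block, non-robust dispersions, only the adult libraries, the largest precursor value, unrounded sums, and each library left out. Testing only miRNAs with a RefSeq sequence and a loess offset per library on GC content were chosen after seeing the data. The fit was also run on simulated data whose means and spread were taken from these libraries, and the outcome is not given here. Figures were drawn with matplotlib 3.10.9. Target genes and reads were not analysed here.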

Additional observations from a re-analysis of the deposited data

Results flagged for a closer look

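The VM to TN difference differed between adult and neonatal cells for 21 of the 118 named miRNAs. The 118 include list members and arms of the widest pairs. The calls are from the edgeR test of that difference itself, which rests on 1 neonatal TN library. Among all 288 tested miRNAs 23 passed this test (7.99%). Some of the 118 were named for their small p in this same test, so part of the count of 21 follows from that choice. The values that follow are the adult minus the neonatal log2 fold change. They were 3.25 for miR-151-3p, 3.18 for miR-7a-5p, 3.16 for miR-30a-5p, 2.65 for miR-146b-5p, 2.56 for miR-30a-3p, 2.46 for miR-143-3p, 2.37 for miR-486a-5p, 2.36 for its copy miR-486b-5p, 2.24 for miR-182-5p and 2.24 for miR-151-5p. They were 1.99 for miR-183-5p, 1.72 for miR-301a-3p, 1.66 for miR-146a-5p, 1.66 for miR-98-5p, 1.49 for miR-301b-3p, 1.31 for miR-203-3p and 1.03 for let-7g-5p. They were negative for miR-497a-5p (-2.72), let-7e-5p (-1.77), miR-150-5p (-1.08) and miR-125a-5p (-1.50).

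MiR-151-3p, miR-30a-5p, miR-146b-5p, miR-486a-5p, miR-486b-5p and miR-182-5p passed in every alternative in which they were tested. Each of the other 15 lost its call without adult TN replicate 2, with edgeR adjusted p from 0.0661 for miR-151-5p and miR-183-5p to 0.318 for let-7g-5p and miR-301a-3p. Without adult TN replicate 1, all of these but miR-150-5p, miR-151-5p and miR-183-5p lost it as well (0.0794 for miR-30a-3p to 0.222 for let-7g-5p). Without neonatal VM replicate 1 the calls of let-7e-5p, let-7g-5p, miR-143-3p, miR-146a-5p, miR-150-5p, miR-203-3p, miR-301a-3p, miR-301b-3p and miR-98-5p were lost (0.0617 to 0.354). Without neonatal VM replicate 2 those of let-7e-5p, let-7g-5p, miR-125a-5p, miR-203-3p, miR-301b-3p, miR-497a-5p and miR-98-5p were lost (0.0625 to 0.226).

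With the GC offset, let-7g-5p (edgeR adjusted p = 0.263), miR-98-5p (0.165), miR-203-3p (0.085) and miR-301a-3p (0.0639) did not pass. With upper quartile scaling these 4 and miR-301b-3p did not (0.0714 to 0.168), and with RLE factors let-7g-5p, miR-301a-3p and miR-98-5p did not (0.0752 to 0.086). With library totals those 3 and miR-497a-5p did not pass (0.0531 to 0.0661). The replicate number as a block ended the calls of let-7e-5p (0.0603) and miR-125a-5p (0.0582). With limma voom the calls of let-7g-5p, miR-143-3p, miR-301a-3p, miR-301b-3p, miR-497a-5p, miR-7a-5p and miR-98-5p were lost (limma adjusted p from 0.0567 to 0.11).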

How the results depend on the processing

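The 112 adult calls ranged from 85 to 141 over the alternatives that kept all adult libraries, with the GC offset (69) as the exception, and from 23 to 142 with a library left out. All 24 of the largest changes passed in every setting that kept both TN libraries, apart from the 3 that the GC offset lost, the 1 that a 100 CPM filter did not test and the 2 without a RefSeq sequence. None changed direction in any setting. With the GC offset miR-15a-5p turned to -0.02 and miR-26b-5p to -0.25 on the log2 scale. The 67 seed sums ranged from 21 to 88 with a library left out. The 23 calls of the age difference became 43 with no filter, 43 with filterByExpr, 38 with DESeq2, 15 with limma voom and 6 to 86 with a library left out. The 28 neonatal calls became 52 with upper quartile factors, 53 with no filter, 49 with filterByExpr, 17 among miRNAs with a RefSeq sequence and 16 to 77 with a library left out. The cause of these changes was not tested, but with fewer libraries the remaining one of an arm is assumed to vary like the other groups, and with other filters other numbers of miRNAs were tested. Without the neonatal TN library neither neonatal comparison could be fitted. Whether same-numbered libraries belong together is not stated. Deviations of same-numbered adult VM and TN libraries had a correlation of 0.0107. With 2 libraries per group this single value cannot decide whether they were paired. With the number as a block the calls were 116 for adult cells, 94 for the 4 adult libraries alone, 67 seed sums, 25 for the age difference and 25 in neonatal cells. Below about 10 CPM, 16 to 33 counts before TMM scaling, folds are uncertain, and names at 0 may be present below the depth.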

Other observations

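MiRNAs of the miR-466, miR-467 and miR-669 group, many of which come from repeated near-identical hairpins in an intron of Sfmbt2, lay mostly lower in adult VM cells. They were grouped after their values were seen. Of 21 tested members 0 were higher, 12 lower and 9 did not pass, and 20 had a log2 fold change below zero, with a median of -1.23. Among all 288 tested miRNAs 15.6% passed as lower and 23.3% as higher, and the median was 0.09. MiR-467d-5p was the most abundant, at 310 and 201 CPM in VM and at 624 and 631 in TN (log2 fold change -1.30 with SE 0.23, edgeR adjusted p = 0.0012). MiR-467a-5p was at 151 and 128 CPM in VM and at 319 and 298 in TN (log2 fold change -1.14 with SE 0.22, edgeR adjusted p = 0.00228). Both passed without either TN library. MiR-466f-3p was at 10.1 and 5.19 CPM in VM and at 37.8 and 43.7 in TN, the lowest of the group at -2.43 (log2), and did not pass without adult TN replicate 2 (edgeR adjusted p = 0.0569). MiR-467a-3p, at 32.6 and 28.0 CPM in VM and at 30.2 and 23.1 in TN, was the member above zero (0.19). Reads of these copies can be shared, so their members are not independent, and no sequence of theirs was used here.

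The miR-101 group, also put together after its values were seen, had 2 of 3 tested names higher, with a median of 1.47 on the log2 scale. Of the 6 passenger arms of the miR-30 hairpins, 3 were higher and 3 did not pass, with log2 fold changes from -1.02 to 1.93. Both counts stand beside a background of 23.3% higher.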
